A study of Homo sapiens with 6 samples.

Results

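The genes described here drive the cell division cycle and DNA replication: 40 genes chosen by name for their known roles, 11 that govern passage through G1, 15 of the G1/S step and S phase, and 14 of G2 and mitosis. Of the 40, 39 were among the 14821 genes counted, all 39 passed the filter on low counts, and CCND2 was not analysed here. RNA came from F36P, an established human erythroleukaemia cell line, in 3 libraries of cells carrying the retrovirus MSCV-PIG-AM-ERG and 3 of cells carrying the empty retrovirus MSCV-PIG (genotype given as WT). MSCV vectors express their insert from the viral promoter, and ERG is a transcription factor of the ETS family. Cells of both groups were selected with 1 µg/ml puromycin for 4 days, so the controls also carried the virus and had met the drug. The study asked how ERG inhibits erythroid differentiation. What is compared here is whether the RNA of any cell cycle phase differed between the 2 groups.

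A cell commits to division when cyclin D bound to CDK4 or CDK6, and then cyclin E bound to CDK2, phosphorylate the retinoblastoma protein RB1 and so free the E2F factors. E2F factors switch on genes that load the MCM helicase onto origins, make deoxynucleotides and copy DNA, while cyclin B with CDK1, the Aurora and Polo kinases and the spindle checkpoint carry the cell through mitosis. The INK4 proteins, CDKN2C and CDKN2D among them, block CDK4 and CDK6, and CDKN1B (p27) blocks CDK2. Dividing erythroid progenitors express the replication and mitosis genes highly and shut them down as red cells mature.

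Library totals ranged from 10257141 to 14803031 counts. The labels call the replicates biological without naming separate cultures, and each p-value therefore reflects only how these samples spread. ERG itself was at 97.4, 103 and 104 CPM in ERG replicates 1, 2 and 3 and at 28.1, 14.6 and 22.4 CPM in vector replicates 1, 2 and 3 (log2 difference 2.23, SE 0.23, 95% interval 1.68 to 2.77, edgeR adjusted p = 0.0110). CPM here are counts scaled to a common library size after TMM normalisation. The call on ERG was lost when ERG replicate 1, ERG replicate 2 or the third vector replicate was left out (edgeR adjusted p = 0.0716, 0.0729 and 0.0544), and when ERG replicates 1 and 2 were summed as 1 library (log2 2.24, 0.0738). All 5 erythroid markers looked for were found, with vector means from 223 CPM (GATA1) to 806 CPM (HBG1). Of the epithelial and stromal markers, EPCAM and COL1A1 had group means of at most 5.44 CPM. The lymphoid marker CD79A was at 34.2 CPM with ERG and 16.9 CPM with vector. The pair of ERG replicates 1 and 2 was much more alike than any other pair (chi-square per degree of freedom 2.20, against 21.6 to 86.9 for all other pairs). The libraries also fell apart in a way that crossed the groups. Over all tested genes, the deviations of vector replicate 1 from its group mean had r = 0.628 and 0.588 with those of ERG replicates 1 and 2, and r = -0.719 with those of ERG replicate 3. Genes, over which these correlations run, are not independent replicates. ERG replicates 1 and 2 and vector replicate 1 are called set A and the other 3 libraries set B, a division made from the data.

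No cell cycle gene passed the test between ERG and vector. In bulk RNA a smaller share of cells in a phase and less RNA per cell cannot be told apart. In edgeR's quasi-likelihood test 0 of 39 genes had an adjusted p under 0.05, against 2.2% of all 14203 tested genes (313 genes, and 0, 0, 19 and 51 genes without ERG replicate 1, ERG replicate 2, vector replicate 2 and vector replicate 3). At an unadjusted p under 0.05 there were 4 of 39 (10.3%, against 15.9% of all genes), namely CDKN2D, RB1, MYC and TOP2A. DESeq2 called 2 of 39, CDKN2D as higher and MYC as lower (5.13%, against 7.08% of all genes), and limma-voom called 0. With a term for the library set edgeR called 5 of 39 (12.8%, against 13.2% of all genes), with CDKN2D, RB1, RRM2 and TOP2A higher and MYC lower. The sets were defined on these libraries and ERG replicates 1 and 2 are close to each other, so p-values with the set term may be too low. That closeness also bears on every other fit that counts ERG replicates 1 and 2 separately, DESeq2 included. With these replicates summed, edgeR called 0 of 14203 genes, in a design of 2 against 3. The groups did not overlap, with every ERG library on one side of every vector library, for 7 of 39 genes, or 17.9%, against 21.9% of all genes. None of these shares stood above the background. The median log2 difference, ERG minus vector, was -0.055 over the 39 genes and -0.010 over all tested genes, and the median size was 0.17 against 0.25. For 35 of 39 genes the whole 95% interval of the difference lay within 2-fold in either direction, as it did for 62.1% of all genes. The exceptions were CDKN2D, CCNE1, CCNE2 and MCM4. Mean levels ran from 7.83 to 805 CPM in the 39 genes and from 0.616 to 11526 CPM in all tested genes. The shares and median sizes compared here are thus not matched for level.

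**Figure D1:**
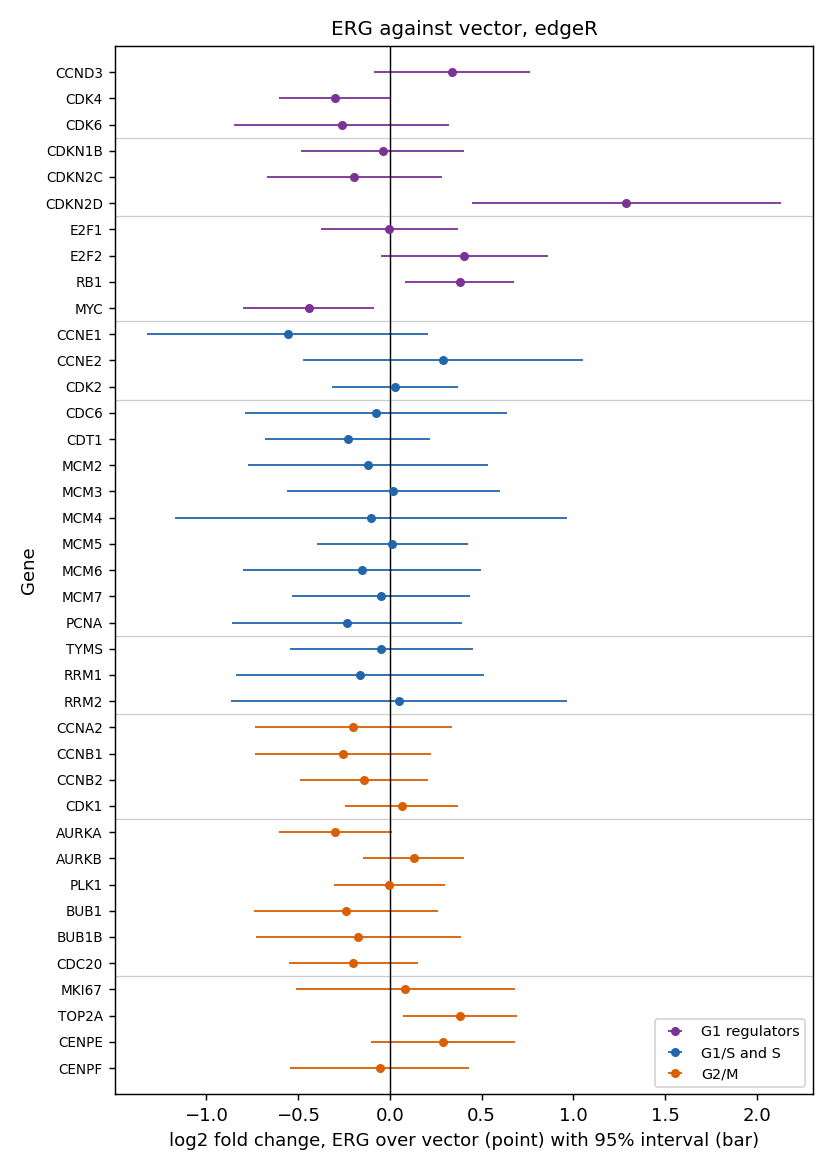
Log2 fold change of ERG over vector (x axis) for each of 39 cell cycle genes (y axis), with 95% intervals from edgeR and colour by phase. CDKN2D stands farthest from 0 at 1.29, and the intervals of all S and G2/M genes but TOP2A cross 0.

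Among the G1 regulators the largest difference was that of CDKN2D, which encodes the CDK4 and CDK6 inhibitor p19-INK4d (hg38 chromosome 19, 10566462 to 10569059). CDKN2D was at 54.1, 54.3 and 30.1 CPM in ERG replicates 1, 2 and 3 and at 28.6, 16.1 and 12.0 CPM in vector replicates 1, 2 and 3. The groups did not overlap, but the lowest ERG library (replicate 3) and the highest vector library (replicate 1) were nearly level. The means were 46.2 ± 13.9 CPM against 18.9 ± 8.64 CPM (SD, n = 3 each), and the difference did not pass (log2 difference 1.29, SE 0.36, 95% interval 0.45 to 2.13, edgeR adjusted p = 0.133). It passed in DESeq2 (adjusted p = 0.0148), and in edgeR with a term for the library set (log2 1.01, adjusted p = 0.00122), with the replicate number as a block (0.00564) or without vector replicate 1 (log2 1.71, 0.0427). Without vector replicate 1 no vector library of set A remains, so that fit mixes ERG with library set. The block pairs ERG replicate 2 with vector replicate 2, whose deviations over all tested genes went opposite ways (r = -0.285). Inside set A it differed by 0.92 and inside set B by 1.11, in log2 CPM with a prior count of 2. CDKN2D also stood 1.03 higher in vector replicate 1 than in the mean of the other vector libraries, and 0.84 higher in the mean of ERG replicates 1 and 2 than in ERG replicate 3. Library set and ERG thus both went with its level.

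The DNA just before the start of CDKN2D is shown because no other cell cycle gene differed as much between the groups. It comes from the RefSeq promoter table (GRCh38.p14, chr19:10569060-10569229, minus strand), and capitals mark a CCAAT box, the site of the factor NF-Y.
CDKN2D: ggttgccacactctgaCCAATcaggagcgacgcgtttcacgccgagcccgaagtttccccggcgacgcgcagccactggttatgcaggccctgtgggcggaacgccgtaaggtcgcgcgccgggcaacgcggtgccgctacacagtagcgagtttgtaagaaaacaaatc
The ETS motif searched, CCGGAAGT on both strands, was in 0 of 44 promoter windows of 33 cell cycle genes, from 250 bases before to 50 bases after the start. It was in 4.14% of all 35116 windows, and its absence says only that these letters are not in this window. The only RB1 window (chr13:48476200-48476449) lay inside the gene, which starts at 48303726, so the DNA before that start was not searched.

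For the other inhibitors the groups overlapped. CDKN2C, the INK4 inhibitor p18, was at 189, 184 and 273 CPM with ERG and at 208, 285 and 245 CPM with vector (log2 difference -0.19, SE 0.20, 95% interval -0.67 to 0.28, edgeR adjusted p = 0.679). Its set A libraries were the low ones in both groups. CDKN1B (p27) was at 29.8, 28.0 and 19.6 CPM with ERG and at 28.1, 27.0 and 24.4 CPM with vector, with a 95% interval of -0.48 to 0.41. Scaled to exon length, the vector level of CDKN2C was 74.1 CPM per kb, against 12.6 for CDKN2D and 9.97 for CDKN1B. With ERG the levels were 64.8, 30.7 and 9.70 CPM per kb, so CDKN2C was the most abundant of the 3 transcripts in both groups.

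MYC, a transcription factor that drives growth and cell cycle entry, was at 681, 665 and 700 CPM with ERG and at 1035, 844 and 902 CPM with vector. All ERG libraries lay below all vector libraries. The means were 682 ± 17.5 CPM against 927 ± 98.3 CPM (SD, n = 3 each; log2 difference -0.44, SE 0.15, 95% interval -0.80 to -0.088, edgeR adjusted p = 0.211). MYC passed as lower in DESeq2 (adjusted p = 0.0198) and with the set term (log2 -0.47, edgeR adjusted p = 0.0175), and the set A libraries differed by -0.62 and those of set B by -0.32. RB1, which holds E2F factors in check and was singled out after its values were seen, was at 41.0, 43.9 and 43.8 CPM with ERG and at 32.1, 31.2 and 35.5 CPM with vector. Every ERG library lay above every vector library by a small margin (log2 0.38, edgeR adjusted p = 0.200) and it passed with the set term (adjusted p = 0.0397). E2F2, an activating E2F factor, was at 35.5, 36.8 and 39.0 CPM with ERG and at 25.6, 35.9 and 22.4 CPM with vector with overlapping groups (log2 0.41, edgeR adjusted p = 0.367). Its relative E2F1 had a log2 difference of -0.0016 and a 95% interval of -0.37 to 0.37, the same distance either way.

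CCND3, a D-type cyclin, was at 616, 605 and 481 CPM with ERG and at 534, 392 and 419 CPM with vector. The lowest ERG library was below the highest vector library, and the difference did not pass (log2 difference 0.34, SE 0.18, 95% interval -0.087 to 0.77, edgeR adjusted p = 0.420). CDK4, a kinase partner of cyclin D, was at 154, 149 and 180 CPM with ERG and at 198, 194 and 202 CPM with vector. All ERG libraries lay below all vector libraries for CDK4, with a log2 difference of -0.30 (edgeR adjusted p = 0.324). CDK6, the other partner, ranged over both groups from 218 CPM in vector replicate 1 to 406 CPM in vector replicate 3, with the ERG libraries between. Of the 10 G1 regulators, 4 had positive and 6 negative log2 differences (median -0.020), and 0 passed.

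**Figure D2:**
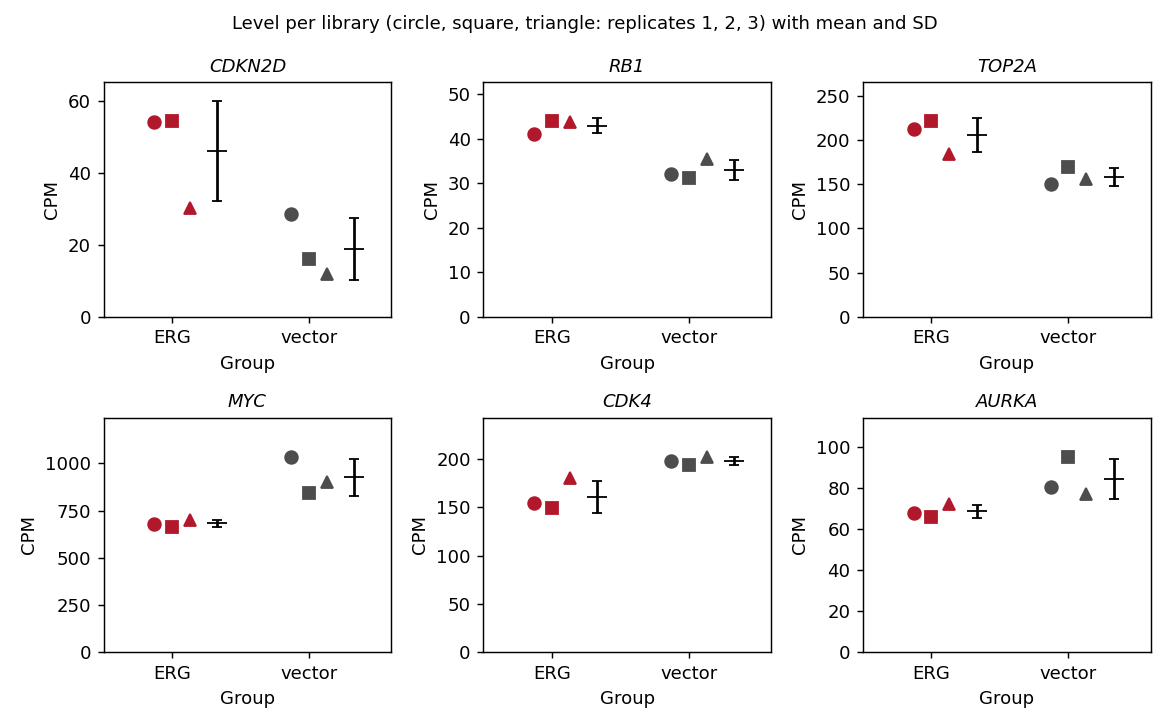
CPM (y axis, from 0) of 6 of the 7 genes whose ERG and vector libraries (x axis) did not overlap. Symbols are single libraries and the bars beside them the mean and SD of 3, and relative to their level the means differ most for CDKN2D, at 46.2 against 18.9 CPM.

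For S phase, the ERG and vector libraries overlapped in all 15 genes and 0 passed, with 5 positive and 10 negative log2 differences (median -0.075). CCNE1, a cyclin E that partners CDK2, was at 22.2, 23.9 and 45.7 CPM with ERG and at 30.8, 51.0 and 53.2 CPM with vector (log2 difference -0.56, SE 0.33, 95% interval -1.32 to 0.21, edgeR adjusted p = 0.461). Its lowest levels were in ERG replicates 1 and 2 and vector replicate 1. CCNE2, the other cyclin E, was at 7.19, 7.26 and 11.4 CPM with ERG and at 5.37, 9.97 and 5.77 CPM with vector (log2 0.29, edgeR adjusted p = 0.702), and CDK2 at 65.1, 65.3 and 75.9 CPM with ERG and at 57.4, 70.9 and 73.9 CPM with vector (log2 0.029). The E-type cyclins thus had differences of opposite sign, neither past the test.

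Of the 9 genes of origin licensing, helicase and clamp, 0 passed. CDT1, which loads the MCM helicase onto origins together with CDC6, was at 177, 177 and 166 CPM with ERG and at 263, 164 and 182 CPM with vector (log2 difference -0.23, SE 0.19, 95% interval -0.68 to 0.22, edgeR adjusted p = 0.600). Vector replicate 1 alone stood high. CDC6 itself had a log2 difference of -0.075. The 6 subunits of the helicase, MCM2 to MCM7, had log2 differences from -0.15 (MCM6) to 0.020 (MCM3) with edgeR adjusted p of at least 0.816. With the set term all 6 were positive, from 0.093 (MCM7) to 0.31 (MCM4), and 0 passed. MCM7, the subunit with the highest CPM, was at 427, 396 and 581 CPM with ERG and at 400, 480 and 571 CPM with vector (95% interval -0.53 to 0.44). Per kb of exon the vector levels of the 6 subunits lay between 73.3 (MCM6) and 132 CPM per kb (MCM7), and the ERG levels between 66.0 and 128 for the same subunits. PCNA, the sliding clamp of the replicative polymerases, was at 131, 118 and 210 CPM with ERG and at 131, 206 and 203 CPM with vector (log2 difference -0.23, SE 0.27, 95% interval -0.86 to 0.39, edgeR adjusted p = 0.705).

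The genes of deoxynucleotide synthesis overlapped as well. RRM2, the small subunit of ribonucleotide reductase, was at 90.8, 93.3 and 181 CPM with ERG and at 61.9, 135 and 155 CPM with vector (log2 difference 0.052, SE 0.39, 95% interval -0.86 to 0.97, edgeR adjusted p = 0.960). RRM2 varied widely within both groups, and its ERG and vector means were almost level. With the set term it passed as higher (log2 0.44, edgeR adjusted p = 0.0196), with differences of 0.57 in set A and 0.32 in set B. RRM1, the large subunit, was at 107, 109 and 189 CPM with ERG and at 105, 167 and 182 CPM with vector (log2 -0.16), and TYMS, thymidylate synthase, had a 95% interval of -0.54 to 0.45.

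Of the 14 G2/M genes, 0 passed, 5 had positive and 9 negative log2 differences (median -0.097). TOP2A, the topoisomerase that untangles sister DNA, was at 212, 221 and 185 CPM with ERG and at 150, 169 and 156 CPM with vector. The groups did not overlap (log2 difference 0.38, SE 0.13, 95% interval 0.070 to 0.69, edgeR adjusted p = 0.221), and the difference passed only with the set term among the alternatives run (log2 0.36, edgeR adjusted p = 0.0493). Inside set A TOP2A differed by 0.53, and inside set B by 0.19. CENPE, a kinetochore motor, was at 81.2, 81.0 and 60.0 CPM with ERG and at 52.3, 65.0 and 64.2 CPM with vector, with ERG replicates 1 and 2 high and the rest together (log2 0.29, edgeR adjusted p = 0.451). CENPF, a large kinetochore protein, was at 184, 198 and 209 CPM with ERG and at 143, 234 and 237 CPM with vector and overlapped (log2 -0.055). The proliferation antigen MKI67, taken after its values were seen, was at 111, 120 and 144 CPM with ERG and at 73.5, 141 and 139 CPM with vector, where vector replicate 1 alone was low. Inside set A MKI67 differed by 0.65, and inside set B by 0.038.

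AURKA, the Aurora kinase of centrosomes, was at 67.9, 65.9 and 72.1 CPM with ERG and at 80.7, 95.3 and 77.0 CPM with vector, all ERG libraries below all vector libraries by a small margin (log2 -0.30, edgeR adjusted p = 0.329). Its relative AURKB, the kinase of the chromosomal passenger complex, was at 41.7, 41.5 and 41.5 CPM with ERG and at 37.4, 37.5 and 39.1 CPM with vector, all ERG libraries above (log2 0.13, edgeR adjusted p = 0.623). PLK1, the Polo kinase, was at 161, 168 and 158 CPM with ERG and at 145, 177 and 166 CPM with vector, a difference of -0.0024 with a 95% interval of -0.31 to 0.30. BUB1, a spindle checkpoint kinase, was at 91.0, 91.2 and 114 CPM with ERG and at 81.9, 136 and 131 CPM with vector (log2 -0.24, edgeR adjusted p = 0.623). CCNB1, the mitotic cyclin, was at 73.8, 70.6 and 95.2 CPM with ERG and at 71.1, 111 and 104 CPM with vector (log2 -0.25) and CCNA2, the cyclin of S and G2, at 154, 145 and 209 CPM with ERG and at 140, 230 and 212 CPM with vector (log2 -0.20). In BUB1, CCNB1 and CCNA2 the ERG libraries lay inside the range of the vector libraries, but for ERG replicate 2 of CCNB1, just below it. The other mitotic genes (CCNB2, CDK1, BUB1B and CDC20) had log2 differences from -0.20 (CDC20) to 0.065 (CDK1), and each of their 95% intervals included 0.

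**Figure D3:**
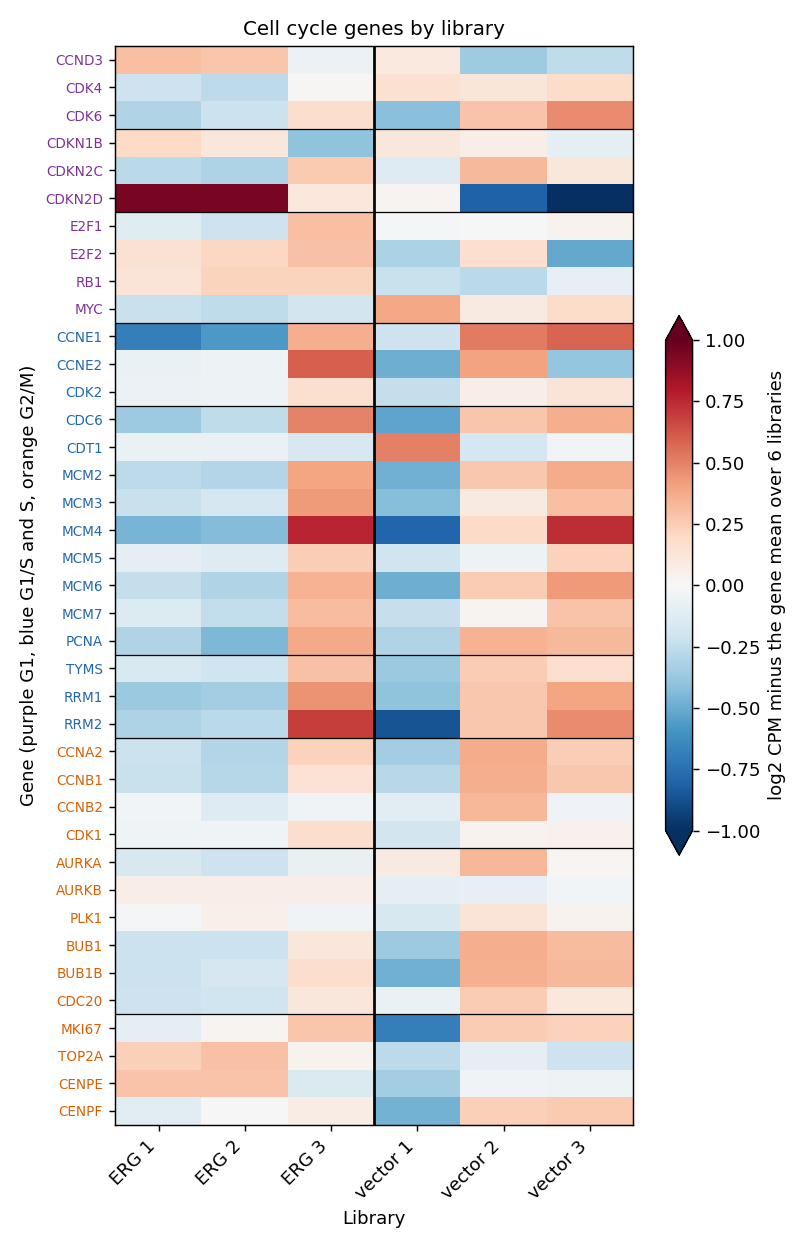
Log2 CPM of each cell cycle gene (rows, grouped by role) in the 6 libraries (columns), minus the gene's mean over the 6. Most S-phase rows are blue in ERG 1, ERG 2 and vector 1 and red in ERG 3, vector 2 and vector 3, while CDKN2D is red in ERG 1 and ERG 2 and blue in vector 2 and vector 3.

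The S-phase genes differed more among libraries of the same group than between the groups. The mean log2 level of the 15 G1/S and S genes, relative to the mean over 6 libraries, was -0.25, -0.26 and 0.38 in ERG replicates 1, 2 and 3. In vector replicates 1, 2 and 3 it was -0.37, 0.20 and 0.29. The 3 libraries of set A were thus low and those of set B high, whichever virus the cells carried. The 14 G2/M genes ran from -0.27 (vector replicate 1) to 0.20 (vector replicate 2), with the ERG libraries between at -0.066, -0.057 and 0.079. The 10 G1 regulators stayed between -0.12 and 0.072 in mean, over genes that went either way: CDKN2D and CCND3 were higher and CDK6 and CDKN2C lower in set A, in both groups. Between groups the means differed by -0.084 for G1/S and S, -0.029 for G2/M and 0.12 for G1 regulators, ERG minus vector. Within set A these differences were 0.11, 0.21 and 0.090, and within set B 0.14, -0.077 and 0.15. The G1 mean includes CDKN2D, which differed most, by 1.29 over all libraries, 0.92 in set A and 1.11 in set B. As a median, the G1 difference was -0.020 over all libraries, 0.10 within set A and 0.15 within set B. The S-phase difference was negative over all libraries and positive within each set. ERG has 2 of its 3 libraries in set A, and vector 1 of 3.

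**Figure D4:**
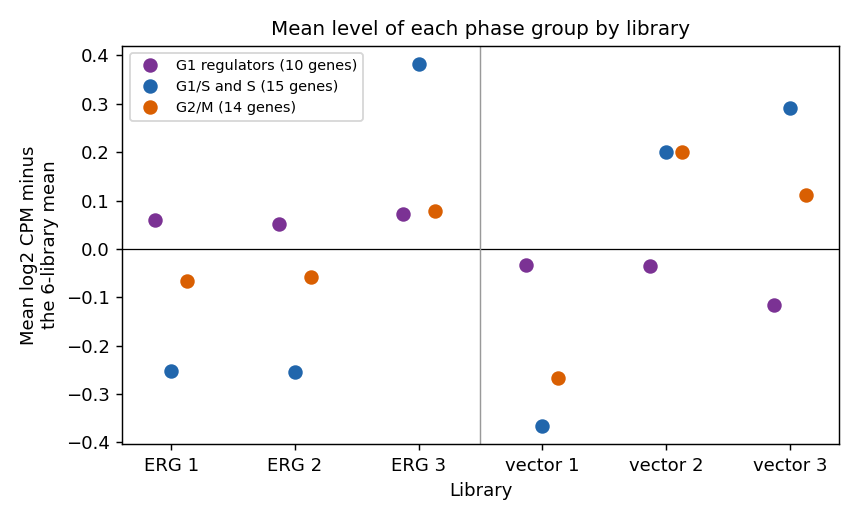
Mean log2 CPM of the genes of each phase (y axis, relative to the mean over 6 libraries) in each library (x axis). The S-phase mean is -0.25 or lower in ERG 1, ERG 2 and vector 1 and 0.20 or higher in the other libraries, and the G1 mean stays near 0.

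Gene by gene, 14 of 15 G1/S and S genes were lower in set A in both groups, that is, in vector replicate 1 than in the other vector libraries and in ERG replicates 1 and 2 than in ERG replicate 3. So were 10 of 14 G2/M genes and 6 of 10 G1 regulators, against 37.1% of all tested genes. These counts describe libraries whose division was made from all genes, and no test is given. MCM4, singled out after its values were seen, had the widest split. It was at 298, 305 and 700 CPM with ERG and at 237, 470 and 689 CPM with vector, which is -1.26 between the vector and -1.22 between the ERG libraries on the log2 scale, set A minus set B. RRM2 had -1.23 and -0.98. CDT1 was the S-phase gene that went the other way (0.61 and 0.095), as did CDKN2D, CCND3 and CDKN1B among the G1 regulators. CENPE was lower in set A with vector (-0.30) and higher with ERG (0.43). An interaction of ERG and set, which rests on 1 vector library in set A and 1 ERG library in set B, was called for 0 of 14203 genes in edgeR. Among the cell cycle genes it was largest in size for CENPE (-0.74), MKI67 (-0.61), CENPF (-0.59) and CDT1 (0.51). These values are the log2 difference of ERG from vector in set B minus that in set A.

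**Figure D5:**
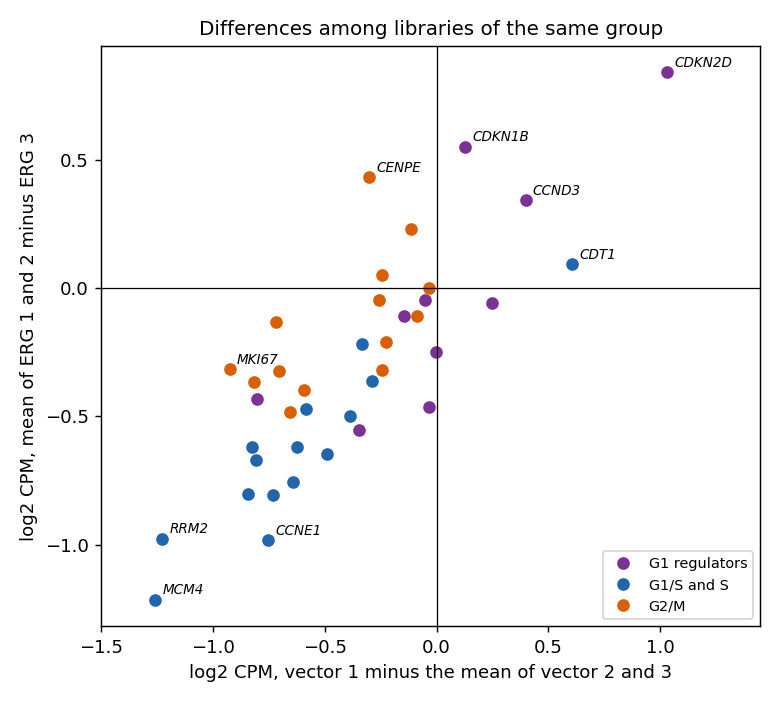
Log2 CPM difference of vector 1 from the mean of vector 2 and 3 (x axis) against that of the mean of ERG 1 and 2 from ERG 3 (y axis), 1 point per cell cycle gene. The S-phase points other than CDT1 lie at the lower left, down to MCM4 at -1.26 and -1.22, and CDKN2D lies at the upper right.

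The DNA before the start of a few S-phase and mitotic genes is shown, from the same RefSeq table. Whether the motifs in it bear on the differences among libraries was not tested. The genes shown hold motifs that others lack, as CCNE1, CDC6, MCM2, RRM1 and RRM2 had no E2F match in the 250 bases before the start. MCM6 (GRCh38.p14, chr2:135876444-135876693, minus strand) and PCNA (chr20:5126627-5126872, minus strand) are S-phase genes with E2F motifs. MKI67 (chr10:128126424-128126673, minus strand) is a mitotic gene with CHR motifs, an element through which the DREAM complex acts. The MCM6 window also holds a CHR match. Capitals mark E2F motifs, CHR motifs and CCAAT boxes on either strand, some of which overlap.
MCM6: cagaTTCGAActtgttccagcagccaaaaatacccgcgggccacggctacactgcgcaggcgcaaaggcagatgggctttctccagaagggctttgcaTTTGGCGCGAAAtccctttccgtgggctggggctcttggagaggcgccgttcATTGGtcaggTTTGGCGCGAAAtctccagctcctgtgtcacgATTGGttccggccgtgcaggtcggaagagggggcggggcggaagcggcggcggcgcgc
PCNA: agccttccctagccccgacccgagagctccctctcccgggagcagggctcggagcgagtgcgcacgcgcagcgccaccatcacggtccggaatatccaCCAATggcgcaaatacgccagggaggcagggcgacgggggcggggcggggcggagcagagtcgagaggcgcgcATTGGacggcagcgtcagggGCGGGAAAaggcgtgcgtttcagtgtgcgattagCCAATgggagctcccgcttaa
MKI67: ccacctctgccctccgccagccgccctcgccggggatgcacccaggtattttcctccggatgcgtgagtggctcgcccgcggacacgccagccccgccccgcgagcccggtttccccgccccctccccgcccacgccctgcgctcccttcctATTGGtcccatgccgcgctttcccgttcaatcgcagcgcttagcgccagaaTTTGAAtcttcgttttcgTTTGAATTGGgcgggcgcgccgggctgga
E2F motifs were searched as TTTCCCGC, TTTCGCGC, TTTGCCGC and TTTGGCGC, on both strands. They were in 8 of 15 windows of G1/S and S genes (11 genes), 2 of 15 of G2/M genes (13 genes) and 2 of 14 of G1 regulators (9 genes), against 3.31% of all windows. The CHR motif, TTTGAA or TTCGAA, was in 10 of 15 G2/M windows, 2 of 15 G1/S and S windows and 0 of 14 windows of G1 regulators, against 16.35% of all. CCAAT was in 13, 11 and 6 of these windows, against 34.61% of all. Windows of 1 gene can overlap, and a match is a description of letters, not of a bound site. The windows of G1 regulators include that of RB1, which lies inside the gene. RB1 is not the only such case, as all windows of CCND3, CDK4, CDT1, MCM7, RRM2 and AURKB also lie inside their genes.

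In edgeR without further terms and with all 6 libraries, 0 genes of the same pathways outside the 40 were called. Of 33 other S-phase genes 0 passed (median log2 difference -0.065), with 14 positive and 19 negative. Of 37 other replication factors 0 passed and 29 had negative differences (median -0.15), against 7262 of all 14203 tested genes. Within each set the sign of their median was reversed, at 0.089 in set A and 0.029 in set B. RPA3, the small subunit of the single-strand binding protein RPA, was at 9.46, 11.2 and 17.8 CPM with ERG and at 18.7, 20.1 and 19.9 CPM with vector (log2 -0.61, edgeR adjusted p = 0.300). These replication factors split by set as well, as 36 of 37 were lower in set A in both groups.

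Among 42 other G2/M genes 0 passed, with 21 positive and 21 negative differences. CKAP2L, a spindle protein, was at 107, 104 and 85.2 CPM with ERG and at 61.4, 69.7 and 54.1 CPM with vector, all ERG libraries above all vector libraries (log2 difference 0.68, SE 0.15, 95% interval 0.32 to 1.03, edgeR adjusted p = 0.0771). It passed in DESeq2 (adjusted p = 0.00724), with the set term (0.0109), with the replicate block (0.0218) and without ERG replicate 3 (0.0480, edgeR). Of 36 other checkpoint and anaphase genes 0 passed, and SPC25, a subunit of the NDC80 complex, had the smallest p (log2 0.41, edgeR adjusted p = 0.213). Of 39 other cyclins, kinases, inhibitors and their regulators 0 passed as well. CCNG2, an atypical cyclin linked to arrest, was at 25.6, 27.1 and 16.0 CPM with ERG and at 18.4, 8.07 and 7.82 CPM with vector (log2 difference 1.00, SE 0.38, 95% interval 0.12 to 1.89, edgeR adjusted p = 0.255). When vector replicate 1 was left out, CCNG2 passed at 1.53 (edgeR adjusted p = 0.0422), but that leaves no vector library of set A. CCNG2 was higher in set A in both groups, by 1.19 with vector and 0.71 with ERG. The value of 1.53 thus mixes ERG with library set. Allowing for library set in the model, its difference was smaller, at 0.75, and also passed (edgeR adjusted p = 0.0108). CDKN1A (p21), taken after its values were seen, had few counts, with means of 0.890 CPM with ERG and 2.16 CPM with vector. Its libraries overlapped, at 0.625, 0.822 and 1.22 CPM with ERG and at 2.20, 0.761 and 3.52 CPM with vector. The difference did not pass (log2 -1.25, 95% interval -2.62 to 0.13, edgeR adjusted p = 0.359). At an unadjusted p under 0.05 the 5 lists had 1, 1, 1, 1 and 2 genes in the order given here (3.03%, 2.7%, 2.38%, 2.78% and 5.13%), all below the 15.9% of all tested genes.

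Exons of some genes overlap those of a gene on the other strand, and the sources used here do not say whether reads were counted by strand. In GENCODE release 29 this touches 58.2% of the exon bases of TYMS (ENOSF1), 51.9% of CDK4 (TSPAN31), 47.5% of CCNE2 (INTS8) and 30.7% of MCM2 (AC023593.1). RRM2 shares 27.9% of its exon bases with a gene on the same strand (AC007240.1). The values of these 5 genes are therefore less certain.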

How the data were processed

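The values deposited by the authors are whole-number read counts, whose totals differ between libraries, although the table is named for CPM. Per the submitters' processing notes hg38 and edgeR 3.32.1 were used. The aligner, counter, annotation and strand are not given in the sources used here. Per the labels' protocols the libraries were made from polyadenylated RNA with random hexamers. Control columns carry another heading than the vector samples and were assigned to them by replicate number, as the only other group. 

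The filter asked for 1 CPM or more in 3 or more of the 6 libraries, which kept 14203 genes and dropped 618. They were tested with edgeR 4.0.16 in R 4.3.3, by TMM and the two-sided quasi-likelihood test with Benjamini-Hochberg adjustment over all tested genes. The threshold was an adjusted p of 0.05. The SE is the size of the log2 difference over the square root of F. Alternatives were size factors as in DESeq2, no filter, DESeq2 1.42.0, limma-voom (limma 3.58.1), a replicate block, a library set term, ERG replicates 1 and 2 summed, and each library left out. Differences within a set use log2 CPM with a prior count of 2. All genes and lists were chosen with earlier results of these data known. For each role group the 2 genes with the largest difference and the 1 with the highest mean are named, and for each wider list, where none passed, the 1 with the smallest p, except that of the other S-phase genes, which is not reported here. Exon lengths and positions come from GENCODE release 29, and promoters from RefSeq, which matched 33 of 40 genes (not AURKA, CCND2, CCNE2, CDK2, MCM4, MCM5 and MYC). For RB1 and several other genes, among them CCND3, CDK4, CDT1, MCM7, RRM2 and AURKB, the matches were windows inside the gene. The sequences printed are the part of the 250 bases before the start that lies outside the GENCODE gene. Of the epithelial, stromal and lymphoid markers, KRT8 had too few counts to be tested, and KRT19, COL1A2, PDGFRB, CD3E, CD3D and MS4A1 were among those not analysed here.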

Additional observations from a re-analysis of the deposited data

How the results depend on the processing

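The count of cell cycle genes that passed edgeR was 0 in the analysis reported and with other size factors, no filter, limma-voom or ERG replicates 1 and 2 summed. It was 2 in DESeq2 (5.13%, against 7.08% of all genes) and 1 with the replicate block (2.56%, against 6.37%). With the library set term it was 5 (4 higher, 1 lower), or 12.8%, against 13.2% of all genes. It was 0 to 1 when single libraries were left out, with 1 without vector replicate 1 (2.56%, against 3.1%). CDKN2D was among the genes called each time, alone with the block and without vector replicate 1. By role the set term called 1 of 3 inhibitors, 2 of 4 E2F, RB and MYC genes, 1 of 3 genes of deoxynucleotide synthesis and 1 of 4 mitotic chromosome genes. These are the same 5 of 39 genes. DESeq2 called 1 inhibitor and 1 of the E2F, RB and MYC genes, and the block 1 inhibitor, while leaving out single libraries gave 0 to 1 inhibitors. In the wider lists the set term called 1 of 33 other S-phase genes (3.03%) and 3 of 42 other G2/M genes (7.14%). It also called 3 of 39 cyclins, kinases and inhibitors (7.69%), 3 of 36 checkpoint genes (8.33%) and 0 of 37 replication factors. Each share lay below the 13.2% of all genes with the same term. DESeq2 called 1 other G2/M gene (2.38%, against 7.08% of all genes). The block called 1 other G2/M gene (2.38%) and 1 gene of the cyclin list (2.56%), against 6.37% of all genes. Leaving out single libraries gave 0 to 1 other G2/M genes, replication factors and cyclins (at most 2.7%, against 3.1% of all genes in the same fits). Over all genes the count was 313, and 1006 in DESeq2, 905 with the replicate block, 1869 with the set term, 0 with ERG replicates 1 and 2 summed (a design of 2 against 3) and 0 to 441 without single libraries. It was 0 without ERG replicate 1 or 2, 19 without vector replicate 2 and 51 without vector replicate 3.

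Same-numbered libraries did not deviate together throughout (r = 0.628, -0.285 and 0.589 for replicates 1, 2 and 3). The numbers were not taken as pairs in the analysis reported. ERG replicates 1 and 2 are too alike for these correlations to settle whether the samples were paired. Other than CDKN2D, the replicate block changed no call among the 39 genes.

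Of 507 values of log2 differences under the alternatives, 436 kept sign and side of the threshold, 62 changed sign and 9 passed. The 21 genes that changed sign had differences of at most 0.229 in size in the analysis reported. None of the 62 values of changed sign passed, though RRM2, one of these genes, passed as higher with the set term (log2 0.44, edgeR adjusted p = 0.0196). The cause was not tested. With the set term the values of changed sign were MCM7 0.093, RRM1 0.080, CCNA2 0.0044, PLK1 0.033, CENPF 0.12, E2F1 0.067, CDC6 0.20, MCM2 0.14, MCM4 0.31, MCM6 0.11, TYMS 0.14 and BUB1B 0.059. With ERG replicates 1 and 2 summed they were MCM7 0.035, E2F1 0.075, CDC6 0.060, MCM4 0.11 and TYMS 0.034. PLK1 was at 0.0025 in limma-voom and 0.0020 with the replicate block. Leaving out single libraries, the ranges were CDK2 -0.074 to 0.10, CDT1 -0.36 to 0.0017, MCM7 -0.23 to 0.091, RRM2 -0.35 to 0.31, PLK1 -0.080 to 0.063, CENPF -0.26 to 0.067, CDKN1B -0.16 to 0.13, E2F1 -0.17 to 0.095, CDC6 -0.39 to 0.087, MCM2 -0.37 to 0.042, MCM3 -0.21 to 0.19, MCM4 -0.62 to 0.30, MCM5 -0.11 to 0.14, MCM6 -0.38 to 0.037, TYMS -0.22 to 0.075, CCNB2 -0.22 to 0.0072, CDK1 -0.0056 to 0.11 and MKI67 -0.16 to 0.23. With other size factors the mean of the G1 regulators in ERG replicate 3 moved from 0.072 to 0.051. In 250 bases before the start alone, E2F motifs were in 1 of 15 G2/M windows. CCNE2, with a mean of 7.83 CPM, had the fewest counts of the 39 genes.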
